A study of Gallus gallus with 14 samples.

Results

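The 14 retina libraries were divided by the last letter of the sample code. The code of 6 libraries ends in L (C31L, C34L, C42L, L26L, L29L and L39L) and that of 8 ends in R (C33R, C41R, C43R, C44R, L25R, L27R, L36R and L38R). The labels do not say what the letter means. It divides both treatments: 3 control and 3 lens libraries carry L, and 4 control and 4 lens libraries carry R. All birds were wild type White Leghorn chickens labelled postnatal day 3, and lens birds were fitted with a -10 D lens at 3 days of age and wore it for 3 days. The labels do not say whether control retinas came from birds without any lens or from the other eye of a lens bird, nor whether all libraries came from separate birds. P-values therefore measure the spread between these samples, and no number of the codes occurs in more than 1 library, so nothing pairs an L with an R library.

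A lens that moves the focal plane behind the retina makes a young chick eye grow longer, and the retina is the tissue that detects the defocus. The left and right sides of the body are set apart in the early embryo by Nodal and LEFTY signalling, and in birds the visual pathways of the left and right eye can differ after the embryo's eyes receive unequal light in the egg. Whether the 2 letters stand for the 2 eyes was not tested and cannot be read from the files.

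No gene passed the test of L against R at an adjusted p of 0.05. The fit was limma on log2(CPM + 1), where CPM is the deposited, depth-scaled read count, with treatment and W-linked RNA as further terms. It called 0 of 14259 genes (0 percent), and the lowest adjusted p was 0.435. Before adjustment, 1166 genes had p under 0.05 (8.18% of those tested), against 713 that a 5% rate gives on average. Of these 1166, the mean was lower in L for 1005 genes (7.05% of those tested) and higher in L for 161 (1.13%), so 86.2% were lower in L. Here and below, counts of lower or higher means go by the sign of the fitted difference, adjusted for the other terms. That sign can differ from the sign given by the plain means. Over all genes tested the median difference, L minus R, was -0.05 on the log2 scale. This split depended on the scaling. The share lower in L was 49.6% after median ratio scaling, 59.4% with every library set to the same sum, and 46.7% after quantile normalization, where the median over all genes was 0, -0.01 and 0. The count of 1166 also rested on single libraries: it was 588 without L29L, 758 without C42L and 1952 without L39L. With voom the adjusted count was 0 as well.

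Other terms of the same fit made calls. Lens against control gave 17 genes (0.119% of those tested), 2 higher and 15 lower with the lens. W-linked RNA, present against absent, gave 384 genes (2.69%), of which 349 lie on chromosome Z and 1 on W. The lens count ranged from 0 to 56 when 1 library was left out, and it moved by more than 1.5 times in 12 of 14 such cases. The W count ranged from 278 to 391.

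**Figure D1:**
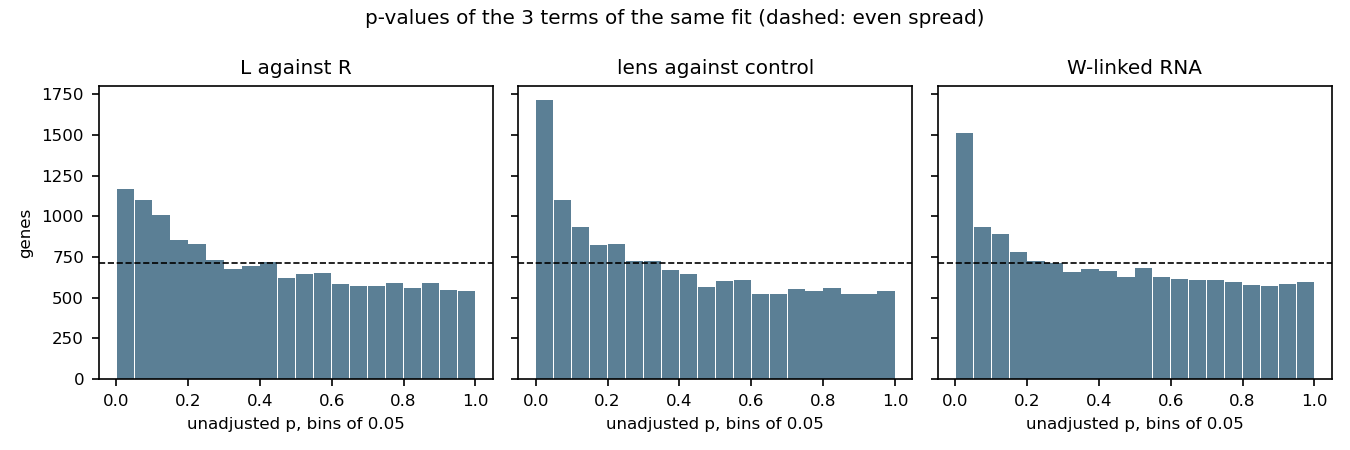
Number of genes (y axis) in bins of 0.05 of the unadjusted p (x axis) for the letter, the lens and the W-linked RNA term of 1 limma fit over 14259 genes, with the dashed line at the average of the bins. The first bin holds 1166 genes for L against R.

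The intervals of the differences can be read as folds only for genes well above the pseudocount of 1 CPM. Among the 5456 genes with a mean of at least 10 CPM, the 95% interval of L against R on the log2(CPM + 1) scale lay within 1.5-fold in either direction for 5388 (98.8%) and within 2-fold for 5440 (99.7%). It reached a median of 0.14 to either side of the difference. For lower genes the pseudocount narrows the interval, and it gives no bound on the fold in CPM. CCDC97, at 0.0764 CPM in L and 0.298 CPM in R, differed by -0.26 on that scale.

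The named genes with the smallest p-values were NET1 and PDE6G, with lower means in L, and COCH, with a higher mean in L. NET1 encodes an exchange factor that activates the small GTPase RhoA. In L libraries NET1 was at 8.72, 17.4 and 11.5 CPM in C31L, C34L and C42L, and at 12.2, 14.1 and 15.8 CPM in L26L, L29L and L39L. Among R libraries NET1 ranged from 16.6 to 24.4 CPM with a median of 19.1. C34L was the one L library that reached into the R range. The means were 13.3 ± 3.13 CPM (SD, n = 6) and 19.9 ± 2.79 CPM (SD, n = 8), a difference of -0.56 on the log2 scale (SE 0.106, limma adjusted p = 0.435).

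PDE6G encodes the inhibitory gamma subunit of the rod phosphodiesterase. Its levels in the control libraries were 9.42, 9.38 and 8.53 CPM in C31L, C34L and C42L against 14.8, 16.2, 13.9 and 13.3 CPM in C33R, C41R, C43R and C44R. In the lens libraries they were 9.92, 15.2 and 16.5 CPM in L26L, L29L and L39L against 19.2, 17.3, 15.7 and 21.5 CPM in L25R, L27R, L36R and L38R. The letters did not overlap within the controls, and L39L lay above L36R within the lens libraries. How many of all genes were apart within a treatment was not counted, and PDE6G was chosen for its small p on the same values. Over all libraries the difference was -0.51 (SE 0.0965, limma adjusted p = 0.435).

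COCH encodes cochlin, a secreted protein best known from the extracellular matrix of the inner ear. It was at 4.93, 10.3 and 8.10 CPM in C31L, C34L and C42L and at 7.69, 9.07 and 8.41 CPM in L26L, L29L and L39L. The R libraries lay between 2.76 and 8.77 CPM, with a median of 3.56. L25R was the highest R library, at 8.77 CPM, and the next highest was at 4.53 CPM. The difference was 0.86 (SE 0.176, limma adjusted p = 0.435). Without L25R it was 1.01 with an adjusted p of 0.00138, the one gene that passed in that fit.

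R3HDM4, which encodes a protein with an R3H domain, was the one named gene of this rule whose letters did not overlap. L libraries lay between 1.45 and 2.07 CPM with a median of 1.69, and R libraries between 2.28 and 3.45 CPM with a median of 2.61. The difference was -0.42 (SE 0.092, limma adjusted p = 0.511). The values of L and R did not overlap in 11 of 14259 genes (0.0771%), 8 lower and 3 higher in L. That number was not compared with what a random assignment of the letters would give, so it supports no difference between them. The other 7 lower in L were CCDC97, KLHDC8B, MARCKSL1, MYCN, NFRKB, SLC29A4 and ZKSCAN7L, and the 3 higher were ACAP2, DPH6 and SLC35D2, all named here after their values were seen.

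ADTRP, which encodes a membrane hydrolase of fatty acid esters of hydroxy fatty acids, had means of 4.69 ± 1.54 CPM in L (SD, n = 6) and 3.09 ± 1.00 CPM in R (SD, n = 8). In the controls it was at 5.00, 5.97 and 6.83 CPM in L against 3.21 to 4.51 CPM in R, and with the lens at 2.89, 3.25 and 4.23 CPM in L against 1.67 to 2.72 CPM in R. Within each treatment the letters did not overlap, and how many of all genes were apart in that way was not counted. The difference was 0.47 (SE 0.106).

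For 5 further genes of the same rule the means were lower in L. PYGL, the liver form of glycogen phosphorylase, had a median of 4.48 CPM in L and 6.11 in R (difference -0.34, SE 0.0786). NDUFV3, a subunit of respiratory complex I, had medians of 9.87 and 13.0 CPM (difference -0.35, SE 0.0821). DNMT3A, a DNA methyltransferase, had medians of 7.56 and 9.47 CPM (difference -0.43, SE 0.0997). In each of these 3 genes, 5 or 6 of 8 R libraries lay above the highest L library. EHBP1L1, an adaptor of endosome recycling, differed by -0.33 (SE 0.0752) and VPS4A, the ATPase that disassembles the ESCRT-III filament, by -0.34 (SE 0.08). Limma adjusted p-values of ADTRP and these 5 genes were 0.511 to 0.546.

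**Figure D2:**
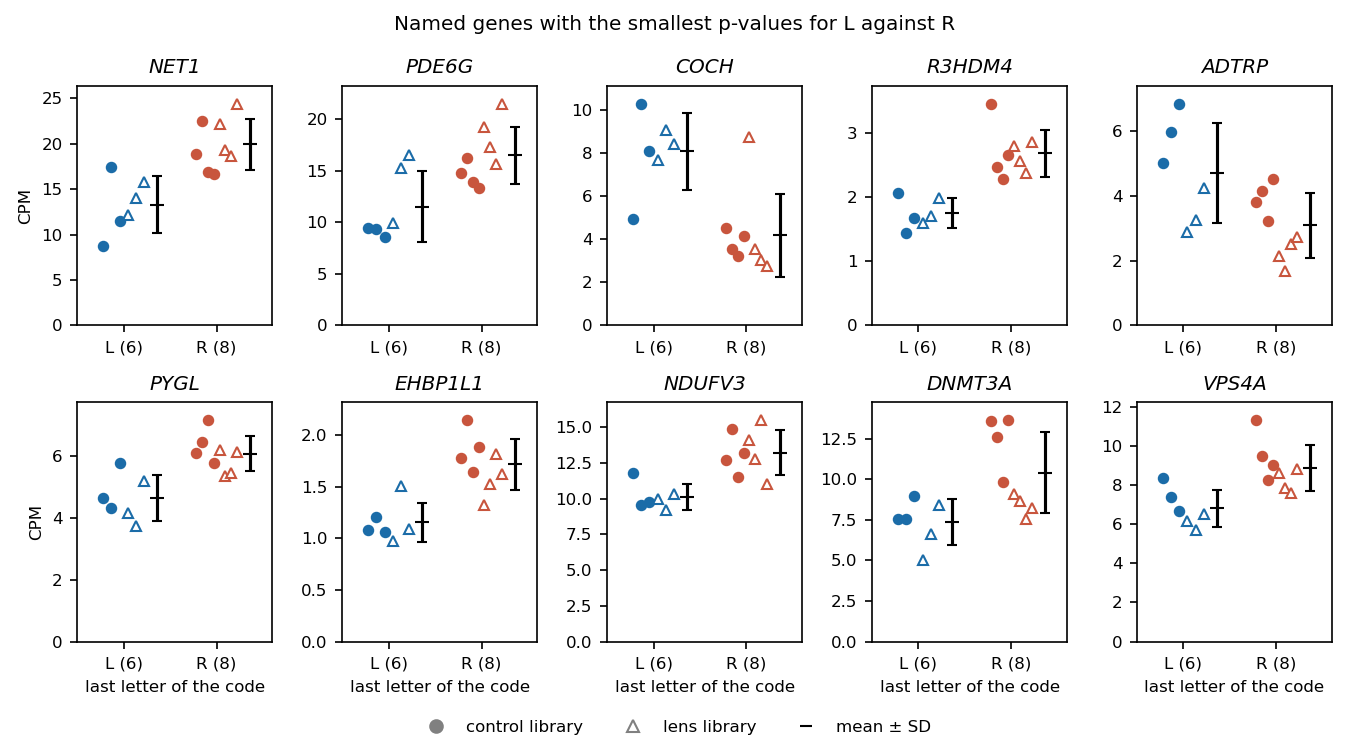
CPM (y axis, from 0) in each library of the 10 named genes with the smallest p for L against R, with L (6 libraries) and R (8) on the x axis, filled circles for control, open triangles for lens, and the mean ± SD in black. R3HDM4 alone shows no overlap, and L25R is the high COCH value at 8.77 CPM.

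The 4 rod markers reported had lower means in L, though none passed. Rods detect dim light through a cascade of the G protein transducin (GNAT1), a phosphodiesterase and a cyclic nucleotide gated channel. Of the 4 rod markers reported (GNAT1, CNGA1, PDE6B and SAG), 0 passed over all genes, 4 had lower means in L, and 3 of 4 (75%) had an unadjusted p under 0.05 with lower means in L, where 7.05% of all genes did. Their median difference was -0.24, against -0.05 over all genes. With that median below 0, most of all genes had lower means in L, and their exact share was not counted. The rod median was compared across settings. It was -0.27 within the controls and -0.29 within the lens libraries. SAG was not lower in L within the controls (difference 0.01), and its difference within the lens libraries was -0.32. The rod median was -0.18 to -0.20 under median ratio, same-sum and quantile scaling, with 4 of 4 lower under each of these scalings. With median ratio scaling 2 of 4 had p under 0.05. The rod count is not given here for each library left out, nor for the 9 libraries without W-linked RNA. Its steadiness therefore cannot be set beside that of the lists below. No rod marker passed. Spread between libraries, their composition, the number of rods and the RNA per rod cannot be told apart in these bulk samples. None of these was tested as a cause.

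GNAT1, the alpha subunit of rod transducin, was at 14.4, 16.7 and 12.1 CPM in C31L, C34L and C42L and at 28.6, 24.2, 19.0 and 19.2 CPM in C33R, C41R, C43R and C44R. With the lens it was at 12.6, 13.5 and 17.1 CPM in L26L, L29L and L39L and at 15.1, 15.5, 18.1 and 26.4 CPM in L25R, L27R, L36R and L38R. In the controls every R library lay above every L library, whereas in the lens libraries L39L lay above L25R and L27R. Such separation in the controls was not counted over all genes. The difference was -0.47 (SE 0.122, limma adjusted p = 0.61). It was -0.54 (SE 0.19) within the controls and -0.40 (SE 0.185) within the lens libraries, and the test of that difference had a limma adjusted p of 1. Without L39L, 3 genes passed L against R in limma, among them PDE6G at an adjusted p of 0.0345 and the ribosomal protein gene RPS19.

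CNGA1, the rod channel, had medians of 15.6 and 19.6 CPM (difference -0.25, SE 0.086), and PDE6B, the beta subunit of the phosphodiesterase, 48.1 and 49.6 CPM (difference -0.23, SE 0.0812). SAG, the rod arrestin, had medians of 219 and 231 CPM and a difference of -0.16 (SE 0.0913), with an unadjusted p of 0.103. Without L26L and without L29L the SAG difference was -0.09 and -0.10, and without L29L that of PDE6B was -0.15. PDE6B lies on chromosome Z, and W-linked RNA is a term of the fit, at -0.65 for this gene. In the controls its plain means were 45.3 CPM in L and 45.9 CPM in R, where the fitted difference was -0.30. With the lens they were 41.9 and 52.7 CPM, where it was -0.16. The PDE6B difference therefore leans on the W term.

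A wider list of rod and shared photoreceptor genes, written after the values were seen, had 33 members tested of 39, and 6 were not listed. Of the 33, 29 had lower means in L, 10 (30.3%) with an unadjusted p under 0.05, where 7.05% of all genes did, and 0 higher members had one. The list was made with these differences known, so its count supports nothing beyond the rod markers. The median was -0.12, and 22 to 27 of the 33 were lower under the 3 other scalings. Beyond the rod markers and PDE6G, the 6 others with p under 0.05 were SLC24A1, the rod sodium/calcium-potassium exchanger (difference -0.39, SE 0.113), GUCY2F, a photoreceptor guanylate cyclase (-0.39, SE 0.124), RP1L1 of the photoreceptor axoneme (-0.27, SE 0.078), CNGB1, the second subunit of the rod channel (-0.26, SE 0.118), the transcription factor MAFA (-0.26, SE 0.115) and the G protein beta subunit GNB1 (-0.17, SE 0.0532). Of the 6 cone markers 6 had lower means in L (5 of 6 under the 3 other scalings), with a median of -0.18. GNAT2, cone transducin, had medians of 157 and 182 CPM, and the red cone opsin OPN1LW 113 and 166 CPM. For OPN1LW the difference was -0.51 (SE 0.24) and for GNAT2 it was -0.19 (SE 0.0889), the 2 cone markers at p under 0.05. Over all genes 7.05% were lower in L at that p. The count of 2 cone markers was 0 under median ratio and same-sum scaling, and 1 with quantile normalization. It was also 0 with treatment left out and with no covariates. Leaving out any 1 of C33R, C34L, C41R, C42L, L25R, L26L, L29L or L38R gave 0 as well. The count was 1 without C43R, C44R or L36R, and 3 without L27R or L39L. In the 9 libraries without W-linked RNA 3 of 6 cone markers were lower in L, with a median of -0.03. A wider cone list, also written after the values were seen, had 11 of 15 tested members lower in L and 4 higher. Of these 15, 4 lower and 1 higher had p under 0.05, where 7.05% and 1.13% of all genes did. That list was made with the differences known, so its counts support nothing either.

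**Figure D3:**
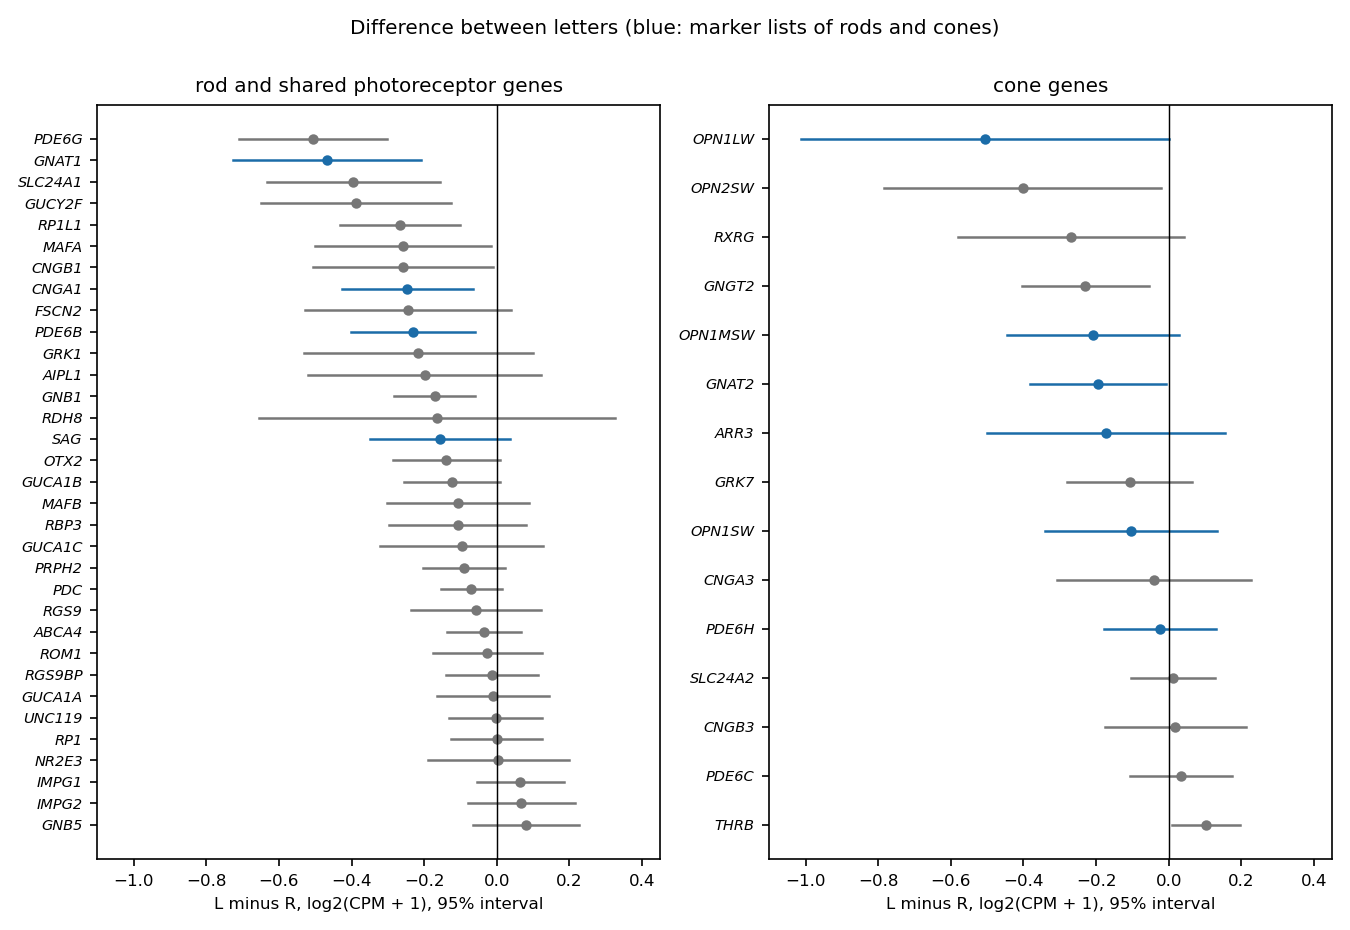
Difference L minus R on the log2(CPM + 1) scale with its 95% interval (x axis) for 33 rod and shared photoreceptor genes and 15 cone genes (y axis), with the marker lists in blue. For 29 of the 33 the point lies below 0, from -0.51 for PDE6G.

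Over all libraries, markers of the other retinal neurons also had mostly lower means in L, with smaller medians there than the rod list: 4 of 5 bipolar, 6 of 6 amacrine, 6 of 7 ganglion cell and 3 of 5 horizontal cell markers. Most of all genes had lower means in L too, with a median difference of -0.05, so these counts alone set no cell type apart. After median ratio scaling these counts were 3, 3, 6 and 2, and in the 9 libraries without W-linked RNA they were 5, 5, 3 and 4, where the ganglion cell median was 0.02. Of 5 tested bipolar markers 1 had p under 0.05 and a lower mean in L (VSX1, difference -0.19, SE 0.061), of 6 amacrine markers 1 (PAX6, -0.23, SE 0.0715), of 7 ganglion cell markers 1 (POU4F1, -0.22, SE 0.0975) and of 5 horizontal cell markers 2 (LHX1, -0.28, SE 0.0955, and ONECUT1, -0.25, SE 0.0981). Lower means in L at p under 0.05 were found in 7.05% of all genes, so counts of 1 in 5 to 7 members are not told apart from that share. The bipolar count was 0 with median ratio scaling and 2 without any 1 of C31L, C42L, C43R, L29L or L39L. The ganglion cell count was 0 under the 3 other scalings and without any 1 of C31L, C33R, C34L, C41R, C42L, C43R, C44R or L36R, and 2 without L39L. The amacrine count was 0 in the 9 libraries without W-linked RNA, 2 without C31L or C41R and 3 without L39L. The horizontal count was 1 without C31L, C43R or L26L. The list medians of bipolar, amacrine, ganglion and horizontal cells were -0.13, -0.11, -0.14 and -0.03. Within the controls they were -0.09, -0.18, -0.28 and -0.15, and within the lens libraries -0.11, -0.08, -0.05 and 0. The ganglion cell median within the controls was not smaller than that of the rod list there, -0.27. Of 6 Müller glia markers 0 had p under 0.05, and the median was -0.04. Under median ratio and same-sum scaling, and without L27R or L39L, 1 of them was higher in L at that p. Without C44R 1 was lower. Tissue around the retina was measured by its markers as well. The pigment epithelium markers summed to 3.39 to 13.9 CPM in L and 3.82 to 13.0 CPM in R, and RPE65, the retinoid isomerase of that layer, had medians of 2.26 and 3.85 CPM (difference -0.52, SE 0.223), while the other 4 tested markers of that layer had higher means in L. Oligodendrocyte markers summed to 90.6 to 148 CPM in L and 97.6 to 170 CPM in R, and 0 of 2 tested had p under 0.05. Microglia markers summed to 3.52 to 6.40 CPM in L and 3.63 to 6.15 CPM in R. C1QB of complement differed by 0.17 (SE 0.0739), at means of 0.47 CPM in L and 0.31 CPM in R, both under 1 CPM. The p of RPE65 was not under 0.05 without C31L, C42L, C43R, C44R, L25R, L38R or L39L, each left out alone, and that of C1QB was not without C34L, C41R, C42L, C44R, L29L, L38R or L39L. Of the tested markers of lens tissue, of vessels and choroid, and of scleral cartilage, 0 of 3, 0 of 3 and 0 of 2 had p under 0.05. Of 8 red blood cell markers 0 were listed. The part of these other cells in the differences was not tested.

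Of the genes that set left and right in the embryo, 23 were named, 15 listed and 12 tested, and 0 had p under 0.05 (2 with higher and 10 with lower means in L). With median ratio scaling 1 and with quantile normalization 2 of the 12 had p under 0.05, with higher means in L, and leaving out 1 library gave 0 to 2. CER1, DAND5, FGF8, GDF1, LEFTY1, NODAL, PKD1L1 and PRRX1 were not listed, and LEFTY2, NKX3-2 and SNAI1 were below the filter. The smallest p-values were those of FOXJ1, a master regulator of motile cilia (medians 1.04 CPM in L and 1.48 in R, difference -0.25, 95% interval -0.50 to 0.01), PKD2, a calcium channel of nodal cilia (-0.21, interval -0.46 to 0.04), and CCDC40, needed for the beat of motile cilia (0.13, interval -0.04 to 0.30). Their limma adjusted p-values were 0.612 to 0.637. RTTN differed by 0.13, CDH2 by -0.06, DNAH11 by -0.11, ACVR2A by -0.05, ACVR2B by -0.05, CFC1 by -0.02, SHH by -0.02, GDF3 by -0.02 and INVS by 0.00. The list median was -0.04, against -0.05 over all genes. Genes with graded expression across the retina gave 1 at p under 0.05 in each list, FOXD1 of the temporal retina (0.25 CPM in L and 0.43 CPM in R) among 10 and VAX1 of the ventral retina (0.31 and 0.51 CPM) among 18, both under 1 CPM and named after their values were seen. Over all genes 7.05% were lower in L at that p.

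Activity and clock genes were compared because they respond to light and time of day. Of 19 immediate early genes 2 had p under 0.05, both with higher means in L, where 1.13% of all genes did. That share depended on the scaling: 161 of all genes were higher at that p as reported. With median ratio scaling it was 499 genes, and with quantile normalization 494. BTG2 was at a median of 9.25 CPM in L and 8.70 in R (difference 0.26, SE 0.0986), with C42L at 14.4 CPM, and FOS at 1.03 and 0.492 CPM (difference 0.36, SE 0.166, and 0.15 without L29L). The count of 2 was 0 without C42L, 1 without C31L, C33R, C41R, L29L, L38R or L39L, 3 without C34L and 4 without C44R or L26L. The difference of JUN was 0.17 (SE 0.0868) and that of EGR1 0.51 (SE 0.28), without p under 0.05. Of 20 clock genes 3 had p under 0.05 and lower means in L: TEF (-0.26, SE 0.105), NPAS2 (-0.21, SE 0.0873) and NFIL3 (-0.21, SE 0.098), where 7.05% of all genes did. That count was 1 under each of the 3 other scalings, 0 without C42L, and 1 without C43R, L26L or L38R. Under median ratio and same-sum scaling 1 clock gene was higher in L at that p as well, and 9 of 20 had lower means. Among 23 genes of glycolysis and hypoxia 16 had lower means in L, with a median of -0.05. Only 1 had p under 0.05, with a higher mean in L, where 1.13% of all genes did. It was EGLN3, a prolyl hydroxylase induced in low oxygen (0.46, SE 0.177). In the L library C34L it stood at 29.8 CPM, where the next highest L library was at 14.3 CPM. Without C34L the count of higher genes was 0, and without C41R or L25R it was 2. Of 14 genes of dopamine and light signalling 1 had p under 0.05, DDC, which makes dopamine (medians 11.7 CPM in L and 13.8 in R, difference -0.30, SE 0.113). At 7.14% of the list that is near the share over all genes. The DDC count was 0 without C34L or C42L. Heat shock genes gave 0 of 22, with 11 higher and 11 lower in L (6 lower under the 3 other scalings). Lowest adjusted p over these genes was 0.61 in limma.

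The letter was compared within each treatment too. Within the controls limma called 0 genes, with 983 (6.89%) at an unadjusted p under 0.05 and a lowest adjusted p of 0.655. Within the lens libraries it called 0 genes, with 384 (2.69%) and a lowest adjusted p of 0.999. For each such test a 5% rate gives 713 on average. Lower means in L were found in 836 of the 983 (85%) and in 236 of the 384 (61.5%). With median ratio scaling they were found in 413 of 869 and in 171 of 399. The count of 384 was 741 without L39L and 628 without L27R. Leaving out C42L gave 1 gene, LOC107051722, in the controls, and leaving out L26L gave 1 gene, LOC770248, in the lens libraries. The test of whether the difference between letters differs between lens and control, which equally asks whether the lens effect differs between letters, called 0 genes, with 401 (2.81%) at an unadjusted p under 0.05. With W-linked RNA left out the last count was 644, and the count within the controls was 1377. In the 7 control libraries fitted alone the count within the controls was 710. With array weights the count within the lens libraries was 626.

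Among the named genes of this interaction the smallest p was that of WDR64, a WD repeat protein (interaction 1.44, SE 0.317, and 0.87 without C34L). In the controls it was at 2.20, 0.420 and 2.73 CPM in L and at 2.80, 4.06, 4.26 and 4.80 CPM in R, and the letters did not overlap. With the lens it was at 3.70, 2.07 and 2.87 CPM in L and at 2.31, 3.19, 2.45 and 2.89 CPM in R, where they did overlap. ATP2C2, a calcium and manganese pump of the secretory pathway, was at 3.46, 3.18 and 3.41 CPM in lens L libraries and 1.37, 2.24, 1.44 and 1.00 CPM in lens R libraries, which did not overlap (interaction 1.07, SE 0.267). PMP2, a fatty acid binding protein of myelin, went the other way within lens, at 1.99, 1.29 and 1.99 CPM in L against 3.33, 3.80, 3.89 and 4.31 CPM in R (interaction -1.04, SE 0.251). RELN, the secreted glycoprotein reelin, was at 258 to 284 CPM in the R controls and 201 to 215 CPM in the R lens libraries, while its L libraries lay between 223 and 253 CPM in both treatments (interaction 0.38, SE 0.0981). The other 6 were SNRPL, TRAF5, VWC2L, DCX, AOX2 and ASMT, with interactions of -1.02, 0.63, 0.63, -0.37, -0.99 and 0.60. ASMT makes the last step of melatonin synthesis and DCX binds microtubules of young neurons. The genes were chosen for a small interaction p, and separation of the letters within a treatment was not counted over all genes. All 10 had an adjusted p of 1.

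Genes that an earlier fit called for lens wear in these libraries, a list of 11 and not the 17 called here, were looked at for the letter. They were chosen on the same samples, so their lens direction within each letter is fixed in part by that choice and supports nothing. Of the 11, 0 had p under 0.05 for L against R, and the differences lay between -0.08 and 0.07. Lens minus control had a median of -0.42 over the 11 in L libraries and -0.44 in R libraries. SGK1, a kinase induced by glucocorticoids, differed by -0.48 (SE 0.103) in L and -0.32 (SE 0.111) in R. NCOA2, a coactivator of nuclear receptors, differed by -0.30 (SE 0.0896) in L and -0.62 (SE 0.0962) in R, with an interaction p of 0.0271 before adjustment. CEP192 of the centrosome, which was higher with the lens, differed by 0.26 (SE 0.0827) and 0.32 (SE 0.0889). Of 20 candidate genes of eye growth 3 had p under 0.05 for the letter: UTS2B, a urotensin peptide (difference 0.19, SE 0.0822), FOS, and ADCYAP1, the peptide PACAP (-0.24, SE 0.104). That is 2 higher, where 1.13% of all genes were, and 1 lower, where 7.05% were, and both shares depended on the scaling. The counts of higher and lower candidates moved with single libraries, from 0 and 0 without C41R to 0 and 3 without L39L and 3 and 3 without C44R, and both were 0 in the 9 libraries without W-linked RNA. UTS2B is not among the 11, but it was 1 of the 17 genes called here for lens against control (-0.49, limma adjusted p = 0.0452). UTS2B was at 1.40, 1.18 and 1.37 CPM in the L controls against 0.555 to 0.851 CPM in the R controls, and at 0.394, 0.252 and 0.826 CPM against 0.449 to 0.629 CPM with the lens. The letters were apart in the controls only, and how many of all genes were so was not counted. The test of that difference had an unadjusted p under 0.05 and a limma adjusted p of 1.

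**Figure D4:**
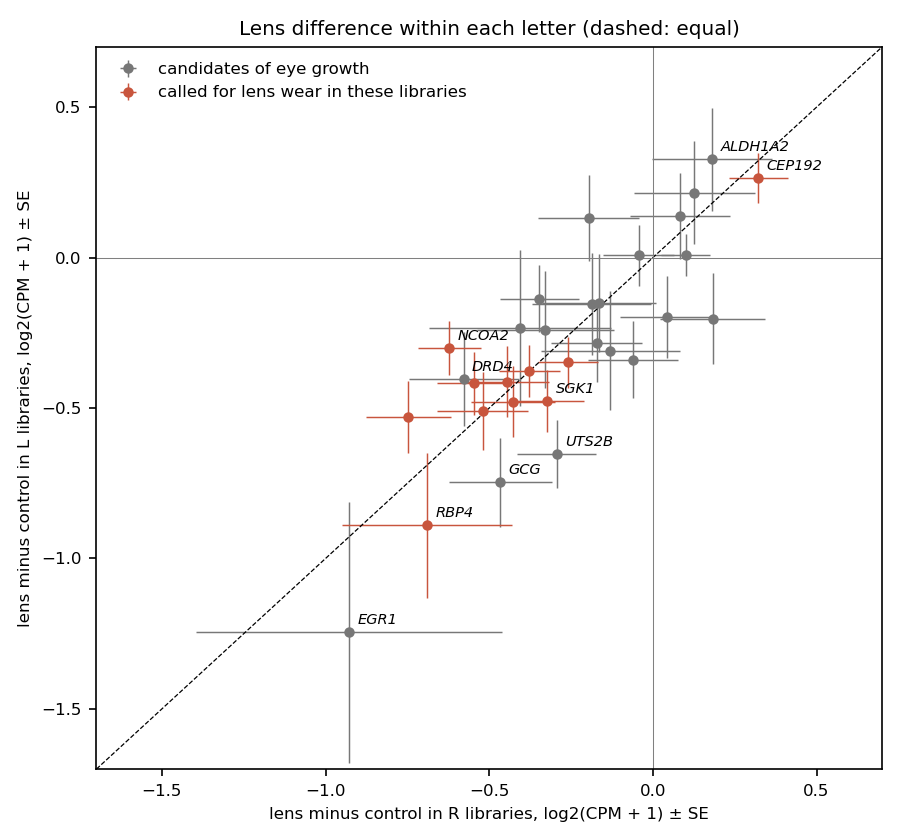
Lens minus control on the log2(CPM + 1) scale with its SE in R libraries (x axis) and in L libraries (y axis) for 11 genes called for lens wear by an earlier fit of these libraries and 20 candidates of eye growth, with the dashed line where both are equal. NCOA2 (-0.30 in L, -0.62 in R) and UTS2B lie on opposite sides of that line.

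The libraries of the letters also differed in composition. The listed genes summed to 309610 ± 4965 CPM in L (SD, n = 6) and 319410 ± 8335 CPM in R (SD, n = 8), with p = 0.0212 in an exact permutation test within treatment and 0.0424 adjusted over 2 measures. The adjusted p was 0.0533 to 0.122 without C31L, C33R, C41R, C42L, C43R, C44R, L26L or L29L, each left out alone. The other measure, the reads implied per library, was 37.2 ± 3.34 M in L and 37.7 ± 3.53 M in R (exact permutation p = 0.803, n = 6 and 8). The nuclear ribosomal RNA genes LOC112533599 and LOC112533601 summed to 677 to 1388 CPM in L and 1101 to 4445 CPM in R, and the 4 EYY68 entries, 2 of them marked as rRNA in the deposited table, to 1271 to 1733 CPM in L and 1547 to 6457 CPM in R. C33R was the highest in both. Both sums were chosen after their values were seen and were not tested. As single genes in the limma fit, LOC112533599 differed by -1.05 (SE 0.214) and LOC112533601 by -0.81 (SE 0.188), with adjusted p-values of 0.435 and 0.511, and the first ranked 4 by p over all genes, ahead of COCH. With those genes and RN7SL1 left out and every library set to the same sum, 0 genes passed, 67.9% of the genes at p under 0.05 were lower in L, and the 4 rod markers were lower in L with a median of -0.21. The part of depletion or RNA quality in the differences was not tested. W-linked RNA was present in 2 of 6 L and 3 of 8 R libraries (two-sided p of Fisher's exact test = 1). Within the groups it was in 1 of 3 control L, 3 of 4 control R, 1 of 3 lens L and 0 of 4 lens R libraries, so the contrasts within a treatment and the interaction lean on the W term.

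**Figure D5:**
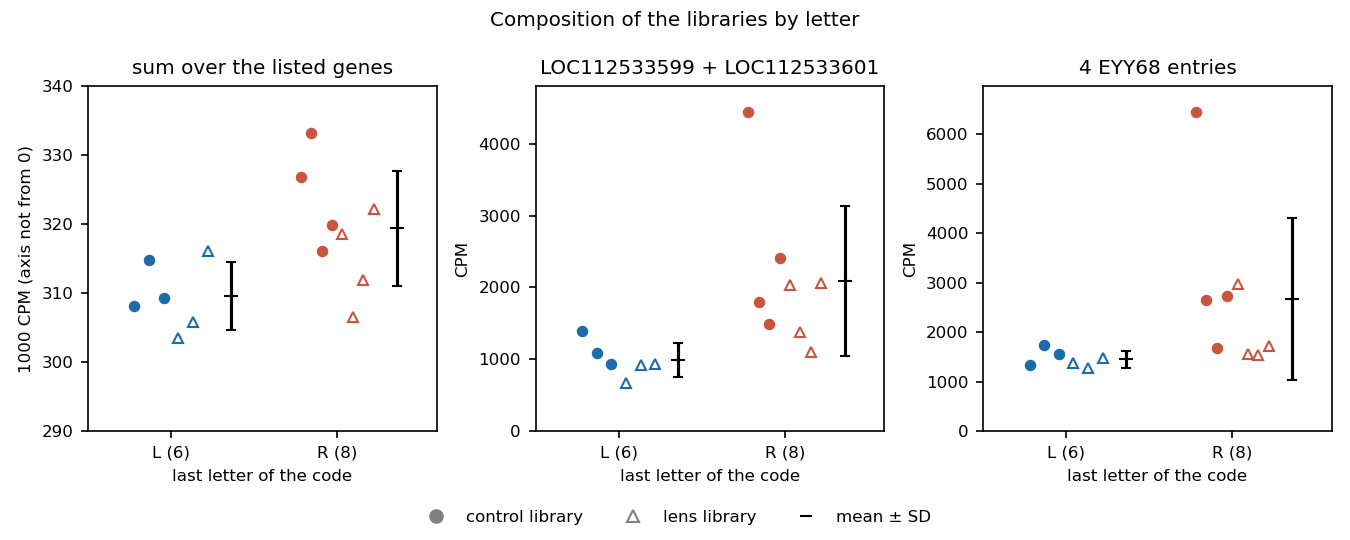
Sum over the listed genes (in units of 1000 CPM, on an axis that does not start at 0), the nuclear ribosomal RNA genes and the EYY68 entries (CPM, from 0) by letter on the x axis, with filled circles for control, open triangles for lens and the mean ± SD. C33R, at 4445 and 6457 CPM, is the highest point of the last 2 panels.

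Principal components of the 14259 genes did not separate the letters. Component 1, with 26.8% of the variance, had means of 5.74 ± 9.67 in L and -4.30 ± 13.84 in R (exact permutation p = 0.098, adjusted 0.294 over 3 components, n = 6 and 8). Components 2 and 3 gave exact permutation p-values of 0.898 and 0.481. Squared differences between library pairs within a group were 8.88 to 27.9 times those that counting error gives (18 pairs). Copies of 1 library would not differ by more than that error, but repeat preparations of 1 sample could.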

How the data were processed

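Total RNA of chick retina was sequenced after depletion of ribosomal RNA with a stranded kit, per the labels' protocols. The submitters' processing notes name STAR, Partek and the GRCg6a build; versions, counting and use of strand are not given in the sources used here, so overlapping genes are uncertain. Values deposited for each gene and library are CPM to which 0.0001 was added, as the numbers themselves show. In 93.5% to 94.5% of values up to 20 reads a value lay within 0.02 of a whole multiple of 1 step. From that step each library held 30.8 to 41.4 M reads. The listed genes made up 30.3% to 33.3% of that total, or 9.67 to 13.8 M reads per library. For 3 counts the floor is 0.0724 to 0.0974 CPM and covers counting error only.

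Values were analysed as log2(CPM + 1). Of 18631 listed genes, 14259 reached 0.5 CPM, computed on the column sum (0.152 to 0.167 CPM as deposited), in at least 7 libraries. The fit had the letter, the treatment and W-linked RNA (HINTW above 50 CPM) as terms in limma 3.58.1 (R 4.3.3, trend). Tests were two-sided; p-values were adjusted by Benjamini-Hochberg over the 14259 genes, and an adjusted p under 0.05 counted as passed. A second fit had a mean for each of the 4 groups plus W-linked RNA. Single values per library were compared by exact permutation of the letters within treatment (1225 assignments). The procedure was run on simulated data with noise drawn separately for each gene. Such data hold no shared shift in composition and no single outlying library, so they do not test how the fit handles these. Chromosomes came from matching 15419 of 18631 symbols to a GRCg7b gene table. Figures used Python 3.11.15 with matplotlib 3.10.9.

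Named genes have a symbol and a mean of at least 1 CPM in the higher letter group, and are the 10 smallest p-values of L against R, the 10 smallest of the interaction, and up to 3 with the smallest p-value of each list described. The left-right axis list is accounted for in full, except that some members of the gene lists are not reported here and were left out of the lists. Any other gene named was picked with its values known. The members and lists were chosen with earlier results of these data known, and 2 lists (wide photoreceptor and cone lists) were written after the values were seen. Alternatives covered pseudocount, filter, scaling, variance model, covariates, chromosomes Z and W, and leaving out each library.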

Additional observations from a re-analysis of the deposited data

Results flagged for a closer look

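In 118 groups of 6 or 8 libraries, 1 library stood far from the others of its letter in 6, where chance gives about 1 in 20 groups, or 5.9 in all. The ribosomal RNA sum of C33R was 4445 CPM, against 2416 CPM for the nearest R library, and the EYY68 sum of C33R was 6457 CPM, against 2982 CPM. COCH stood at 8.766 CPM in L25R, where the nearest R library was at 4.525 CPM. The photoreceptor gene RP1L1 was at 259.9 CPM in C41R, and the nearest R library was at 184.1 CPM. BTG2 was at 14.44 CPM in C42L, against 10.66 CPM for the nearest L library. EGLN3 was at 29.75 CPM in C34L, against 14.25 CPM for the nearest L library. No explanation of these values was tested.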

How the results depend on the processing

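The count of genes for L against R was 0 in every setting with all libraries, and 0 to 3 when 1 library was left out (1 without L25R, 3 without L39L). Within the controls, and within the lens libraries, the count was 0 in all settings with all libraries, and 0 to 1 when 1 was left out. The interaction count was 0 throughout. Lens against control gave 17 genes, 9 with a pseudocount of 5, 0 without a filter, 10 with median ratio scaling, 11 with quantile normalization, 94 with array weights, 2 in the 9 libraries without W-linked RNA, 8 with voom, which was added after the data were seen, and 0 to 56 leaving out 1 library. W-linked RNA gave 1 gene once chromosomes Z and W were left out. Component 2, L minus R, was 0.02 with a pseudocount of 0.1 and -4.64 to 1.59 leaving out 1 library, and component 3 was -5.07 to 2.05. The sum over the listed genes, L minus R, was -11630 to -7822 CPM, implied reads -1.472 to 0.6709 M, and the share with W-linked RNA -17.5 to 4.762 percentage points. The causes were not tested. The 55 named differences that were followed kept their sign in every setting where they were tested. Many were chosen for a small p on these same libraries, so a kept sign was likely beforehand and supports nothing. Other differences given in the text were not followed. Count models on recovered reads were not run, since the steps were not whole for all values. No paired analysis was possible because no number of the codes occurs in more than 1 library.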
